A study of Homo sapiens with 16 samples.

Results

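The regions described here were peak regions of an H3K9me2 ChIP-seq experiment whose centre lay on a transposable element of a mostly old group. They were chosen by the repeat named in the region's deposited annotation, which had to be a MIR element, a LINE2 (L2) element, a CR1 element or a DNA transposon. Of 16092 merged peak regions, 752 met this rule, or 4.67%. They were 381 L2, 217 DNA transposon, 128 MIR and 26 CR1 regions. The rule used no read count. It took DNA transposons whole, so the name ancient-repeat regions covers any younger copies among them.

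The cells were BJ-5ta, an established human fibroblast line that telomerase (hTERT) keeps dividing, either wild type (WT) or ΔLEO1. The ΔLEO1 cells were a single clone in which CRISPR had removed the sequence between the first exons of LEO1, a subunit of the PAF1 complex that accompanies RNA polymerase II during elongation, so genotype and clone cannot be told apart. Both genotypes were grown in 10% serum, in which they proliferate, or were kept in 0.1% serum, in which they become quiescent. Each genotype in each serum gave a ChIP group and an input group (sonicated chromatin sequenced without the antibody), each with replicates A and B, which made 8 groups of 2 and 16 libraries. The labels name the antibody only as H3, while the study's methods name an antibody to histone H3 dimethylated at lysine 9 (H3K9me2). No label says that A and B came from separate cultures, so p-values measure only the spread between these libraries.

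H3K9me2 is a repressive mark laid down in broad domains by the methyltransferases G9a and GLP, and it lies mainly over silent genes, gene deserts and chromatin at the nuclear lamina. MIR elements are tRNA-derived SINEs that were copied by the machinery of L2, a LINE of the same age, and both stopped moving long before primates arose. CR1 elements, including the L3 subfamily, are a further group of old, inactive LINEs. DNA transposons moved by a transposase and survive in the human genome as immobile fossils, mostly of the hAT and TcMar-Tigger groups. Alu elements and the younger LINE1 (L1) copies arose much later than MIR and L2, and LTR elements are remnants of retroviruses.

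One library, replicate A of the ΔLEO1 ChIP in 10% serum, held 21 reads in all peak regions and 0 on ancient-repeat regions, where a count of 0 allows a share of up to 14.3%. It was left out, so ΔLEO1 ChIP in 10% serum is 1 library. The other 7 ChIP libraries held 217472 to 366633 reads in peak regions and 9508 to 15321 on ancient-repeat regions. The 8 inputs held 111132 to 238490 and 5584 to 10694. The 2-kb window at the LEO1 start had 16 to 53 reads in the 8 inputs, with 3.29 to 5.62 counts per 1000000 reads (CPM) of the window table in ΔLEO1 and 4.38 to 6.67 in WT, and does not resolve the deletion. The input of replicate A of ΔLEO1 in 10% serum stood apart, with 3.91 peak-region reads per 100 reads in windows at transcription start sites (TSSs) where the other 7 inputs had 2.88 to 3.19.

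Sequence is shown where a RefSeq promoter, the 250 bases before and 50 bases after a gene's start, lay over an ancient-repeat region. Of 35116 such promoters (GRCh38.p14), 2 did, and both belong to long non-coding RNA genes and lie in MIR regions. The promoter of LINC02808 (chr1:50321075-50321374, minus strand) lay whole within a MIR region of 782 bp. The promoter of LINC02625 overlapped the end of a MIRb region of 1082 bp by 174 bases (chr10:61824182-61824355, minus strand). Neither stretch reaches the centre of its region, the point at which the annotation places the MIR element, and they are shown because they are the gene starts inside these regions. Capitals mark 2 stretches of the MIR core, ACTTACTAG and TTGGGCAAG, which were searched on both strands and do not overlap.
LINC02808: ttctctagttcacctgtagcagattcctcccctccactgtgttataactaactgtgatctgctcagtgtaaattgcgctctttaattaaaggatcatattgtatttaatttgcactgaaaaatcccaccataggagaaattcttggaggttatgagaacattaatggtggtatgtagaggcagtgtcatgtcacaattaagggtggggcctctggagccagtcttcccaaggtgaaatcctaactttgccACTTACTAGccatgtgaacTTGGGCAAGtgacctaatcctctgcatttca
LINC02625: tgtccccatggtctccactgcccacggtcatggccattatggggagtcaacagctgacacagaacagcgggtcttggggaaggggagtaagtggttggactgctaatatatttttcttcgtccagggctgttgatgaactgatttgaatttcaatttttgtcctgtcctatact

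In the LINC02808 stretch the first motif spans bases 251 to 259 and the second bases 270 to 278, counted from its 5′ end. Their middles lie 66 and 47 bases from the centre of the region. The first motif occurs in 48 of the 35116 promoters (0.137%), the second in 98 (0.279%), and both together in 1, this promoter. The promoter and the motifs were chosen after the data were seen, so these counts are a description and no test. Neither motif is present in the LINC02625 stretch. The LINC02808 stretch has a GC content of 42.0% and 1 CpG, and the LINC02625 stretch has 47.7% and 3 CpGs. Over its whole 300 bases the LINC02625 promoter has 47.0% GC and 5 CpGs. The median promoter of that length has 58.7% GC and 14 CpGs, and 96.0% of promoters hold at least 1 CpG.

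The reads over these MIR regions were few. The LINC02808 region held 22 and 18 ChIP reads in WT at 10% serum, 7 in ΔLEO1 at 10%, 6 and 19 in WT at 0.1%, and 15 and 4 in ΔLEO1 at 0.1%. The replicates within a group at 0.1% serum differed more than the groups did. The LINC02625 region held 24 and 19 reads in WT at 10% serum, 11 in ΔLEO1 at 10%, 18 and 17 in WT at 0.1%, and 34 and 25 in ΔLEO1 at 0.1%. After scaling, ΔLEO1 lay above WT at 0.1% serum, at 100.5 and 116 against 48.3 and 57.7 CPM of peak-region reads. The log2 fold change was 0.94 ± 0.33 (SE), which was not called by edgeR's quasi-likelihood test (adjusted p = 0.307).

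The ancient-repeat regions fell into 79 subfamilies, 41 of which had 1 region. L2a was the most frequent with 157 regions, followed by L2c with 95, L2b with 76 and L2 without a letter with 49. Among MIR elements, MIRb had 46, MIR 32 and MIR3 30. Of the DNA transposons, 91 were hAT-Charlie, 80 hAT-Tip100, 26 TcMar-Tigger and 10 hAT-Blackjack elements. L3 made up 20 of the 26 CR1 regions. Ancient-repeat regions were found on all 22 autosomes. Their share of a chromosome's peak regions ran from 3.41% on chromosome 4 (35 of 1025) to 6.81% on chromosome 20 (25 of 367). None of the 9 peak regions on the sex chromosomes was among them.

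The regions were scattered over genes. They had 680 nearest genes, of which 616 had 1 such region, 58 had 2 and 6 had 3. The genes with 3 were GALNT17, which encodes a protein of the GalNAc-transferase family, RBFOX1, a neuronal splicing regulator, the microRNA genes MIR708 and MIR3182, and the non-coding RNA genes LINC00457 and LINC01446. GALNT17 and RBFOX1 were nearest to 23 and 24 peak regions in all. Of the ancient-repeat regions, 59.2% lay within the span of a RefSeq gene, against 50.7% of all other peak regions. Regions with no repeat at the centre (60.1%) and Alu regions (57.3%) had like values, and L1 (45.9%) and LTR regions (40.9%) lower ones. A 2-kb TSS window was overlapped by 4.92% (37 regions), against 10.9% of all other regions, and this share was 22.6% for regions with no repeat, 7.26% for Alu, 3.89% for LTR and 2.44% for L1. The median distance of ancient-repeat regions to the nearest TSS was 57.0 kb, against 68.5 kb for all others, with 44.0 kb for regions with no repeat, 55.8 kb for Alu, 94.3 kb for LTR and 99.6 kb for L1. CR1 regions had the shortest median distance of the families, at 41.6 kb, and 23.1% of them lay within 10 kb of a TSS, against 7.87% of L2 regions. These are descriptions of region lists, with no test.

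To set ChIP against input, reads in each region were divided by TSS-window reads of the same library. ChIP was then divided by the input of the same condition and letter. On this scale, ancient-repeat regions had a mean enrichment of 3.63 ± 0.456 (SD, n = 7 pairs), and all other regions 3.98 ± 0.611. The ancient-repeat value was the lower in 7 of 7 pairs. In WT at 10% serum it was 4.36 and 4.10, in ΔLEO1 at 10% it was 3.52, in WT at 0.1% it was 3.59 and 3.54, and in ΔLEO1 at 0.1% it was 3.25 and 3.06. On this scale the ΔLEO1 values lay below both WT values in each serum. The study, scaling to fly chromatin, reported H3K9me2 as globally raised in ΔLEO1 at 0.1% serum, at many TSS windows too. The denominator here is thus part of what the study reports as raised, and this ratio cannot give the absolute level of the mark. With peak-region reads as the denominator in place of TSS-window reads, the ratio of ChIP to input share turned at 0.1% serum, to 0.948 and 0.984 in ΔLEO1 against 0.877 and 0.905 in WT, and at 10% the ΔLEO1 value of 0.903 lay between the WT values of 0.884 and 0.930. The value for all other regions was also lower in ΔLEO1 at 0.1%, at 3.44 and 3.11 against 4.11 and 3.93.

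**Figure D1:**
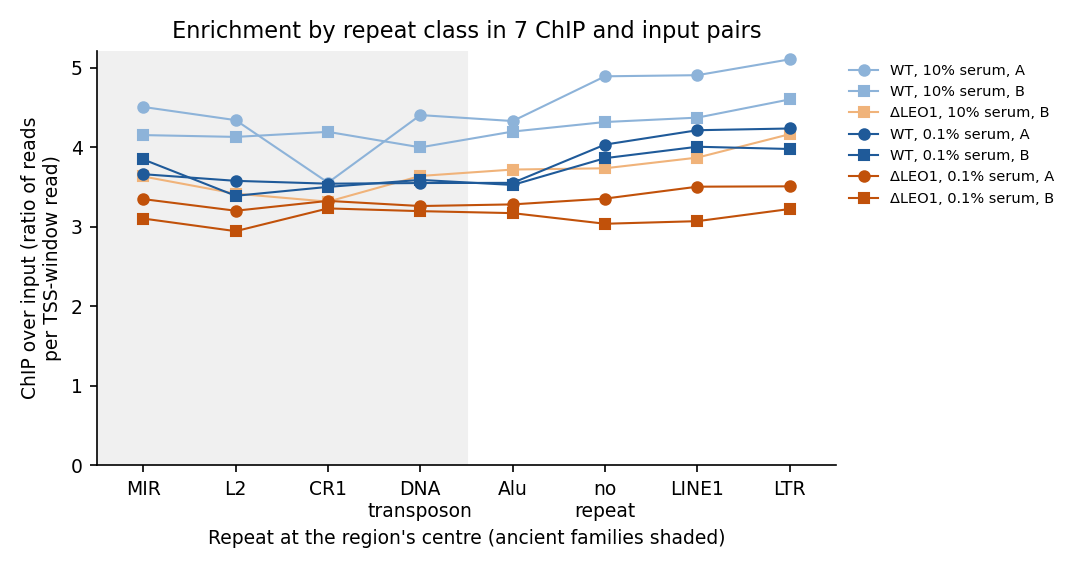
ChIP over input, as a ratio of peak-region reads per TSS-window read, for each repeat class (x axis), with 1 line per ChIP library and its input (circles replicate A, squares replicate B). The 4 ancient families, shaded, have means of 3.53 to 3.75 against 4.12 for LTR regions, and the 2 ΔLEO1 libraries at 0.1% serum lie below the others in every class shown but CR1.

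Mean enrichment over the 7 pairs was 3.75 ± 0.474 for MIR, 3.66 ± 0.421 for DNA transposons, 3.57 ± 0.499 for L2 and 3.53 ± 0.321 (SD, n = 7) for CR1. MIR lay above L2 in 7 of 7 pairs and above DNA transposons and CR1 in 5 of 7 each, and differences between families were not tested. By repeat type, Alu regions (3.68 ± 0.438) lay in the range of the ancient families, while L1 (3.99 ± 0.596) and LTR regions (4.12 ± 0.635) had higher means. L1, LTR and DNA transposon regions were not split by the age of the copy, so this does not compare old with young repeats. The classes also differed in how many regions were merged from 2 peaks. These were 85.9% of ancient-repeat regions (76.6% of MIR) and 90.1% of Alu regions, against 74.9% of all regions outside the ancient repeats. The value was 78.0% for regions with no repeat, 71.25% for L1 and 70.0% for LTR. Its part in the enrichment was not tested. The regions with no repeat at the centre (3.89 ± 0.612) lay below all other regions in 7 of 7 pairs, a set that contains them.

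**Figure D2:**
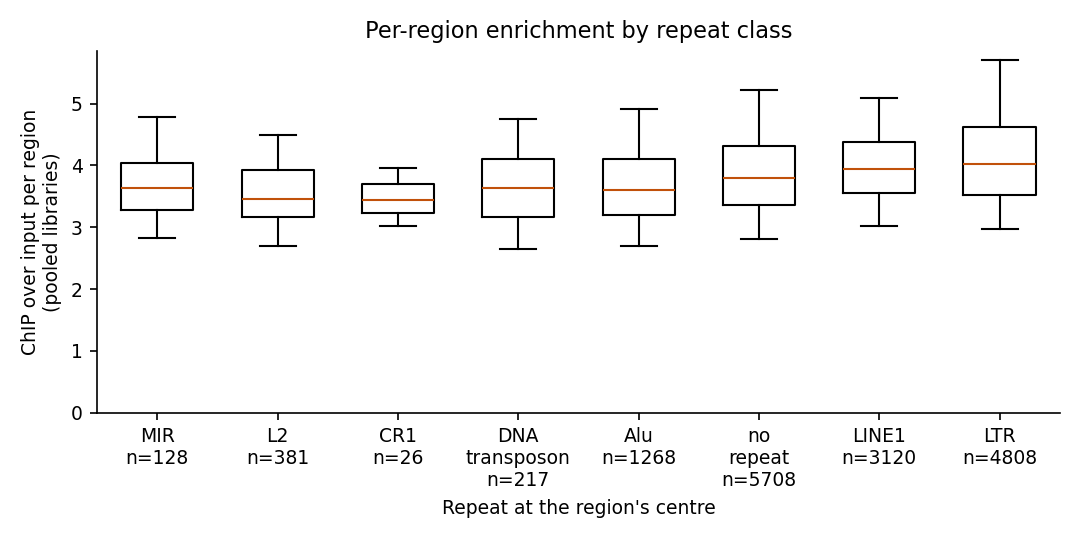
ChIP over input for single regions, from the summed reads of 7 ChIP and 8 input libraries, by repeat at the centre. Boxes show quartiles and median and whiskers the 5th and 95th percentiles, and the 4 ancient families have medians between 3.44 and 3.63 against 4.02 for LTR.

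For single regions, with reads summed over libraries, the median enrichment of the 752 was 3.55 (quartiles 3.18 and 4.00) and that of all others 3.89 (3.44 and 4.42). All 752 lay above 2-fold, from 2.07 to 7.57, and 4 of the other regions lay below it, all without a repeat at the centre. Peaks are regions picked for signal, so this lower edge says nothing of ancient repeats at large. Among 12 of the subfamilies, with 18 to 157 regions each, medians ran from 3.41 for L2a to 3.92 for MER45C, a hAT-Tip100 element. TcMar-Tigger regions had the lowest median of the DNA superfamilies with at least 10 regions, at 3.20. Median ChIP signal, as CPM of TSS-window reads per kb, was 8.46 for ancient-repeat and 8.97 for all other regions. Median input signal on this scale was 2.40 against 2.32, so the numerator was lower and the denominator higher in the ancient-repeat regions.

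The regions with most signal per length were named in each family, as levels only. Here and below, a gene given as near is the one with the nearest annotated TSS, at any distance. Among L2 regions the highest was an L2b within CDH15, a cadherin of muscle cells (chr16:89186027-89186951), with 105 CPM per kb over the 7 ChIP libraries. It held 23 to 38 ChIP reads per library and 6 to 16 in the inputs. Next came an L2 region at −1147 bp from the TSS of ZNF132, a zinc finger gene (chr19:58440793-58441808), with 100.5 CPM per kb. It is one of the 37 regions that overlap a TSS window.

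The highest MIR regions had 99.2 CPM per kb (nearest gene LINC01031, over 1 Mb away), 93.5 CPM per kb (a MIR3 within CRHR2, a receptor for corticotropin-releasing peptides) and 93.2 CPM per kb (within CLYBL, which encodes a mitochondrial enzyme). The MIR3 region in CRHR2 had an enrichment of 5.55, the highest of all MIR regions. The CR1 regions with most signal were an L3b near the keratin gene KRT77 (97.4 CPM per kb) and L3 copies near DCLK1, a neuronal kinase (88.8), and ARMC4, a gene of cilia (80.6). The 3 highest DNA transposon regions were all FordPrefect elements, a hAT-Tip100 subfamily with 18 regions, at 97.3, 96.8 and 96.6 CPM per kb. Their nearest genes were TYW5, CTAGE1 and TMEM17, with the regions at −129643, −161938 and −39161 bp from the TSS. Neighbours in the order of a family differed by less than the SD of either over the 7 libraries, which was 9.44 to 23.1 CPM per kb. The highest level of any other peak region was 3141 CPM per kb, on a repeat outside the ancient, L1, Alu and LTR classes. The highest ancient-repeat level was 105, against 131 for L1, 146 for Alu, 233 for LTR and 476 for regions with no repeat. The most extreme signal was thus outside the ancient repeats, and also outside L1, Alu and LTR regions.

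As a measure that needs no input, the share of each library's peak-region reads that fell on ancient repeats was taken. In ChIP it was 4.11% and 4.10% in WT at 10% serum, 4.23% in ΔLEO1 at 10%, 4.18% and 4.27% in WT at 0.1%, and 4.46% and 4.52% in ΔLEO1 at 0.1%. In input it was 4.65% and 4.41%, 5.02% and 4.69%, 4.77% and 4.71%, and 4.71% and 4.59% in the same order of groups. The widest 95% Wilson interval of a ChIP share was 4.43% to 4.61%, which covers counting error alone, because PCR copies could not be told from separate molecules.

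The ChIP share was 4.27 ± 0.164% (SD, n = 7) and the input share 4.69 ± 0.171% (n = 8). The difference of −0.427 percentage points passed a two-sided exact permutation test (p = 0.000932), although the ranges touched, since 2 ChIP libraries from ΔLEO1 at 0.1% serum lay above the lowest input. This test took the libraries as unpaired and set condition aside. Paired by letter within each condition, the difference was −0.380 points (exact permutation p = 0.0156, the smallest that 7 pairs allow). Each family had a lower share in ChIP, by tests that were also unpaired. L2 went from 2.30% in input to 2.06% in ChIP (exact p = 0.000932, adjusted over the 4 families 0.00373) and DNA transposons from 1.33% to 1.22% (exact p = 0.00186, adjusted 0.00373). MIR went from 0.890% to 0.838% (exact p = 0.00715, adjusted 0.00953) and CR1 from 0.174% to 0.152% (exact p = 0.0121, adjusted 0.0121). The ratio of ChIP to input share was 0.941 for MIR, 0.917 for DNA transposons, 0.894 for L2 and 0.875 for CR1. It was 0.920 for Alu and 1.04 for LTR regions.

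This is a share among peak regions. With TSS-window reads as the denominator, ancient repeats had more reads in ChIP, by 0.364 per 100 window reads. Peak regions were picked for ChIP signal, so this direction was given in advance and is not a result about ancient repeats. Without the input of ΔLEO1 in 10% serum that stood apart, the difference in share was −0.380 points (exact p = 0.00175).

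**Figure D3:**
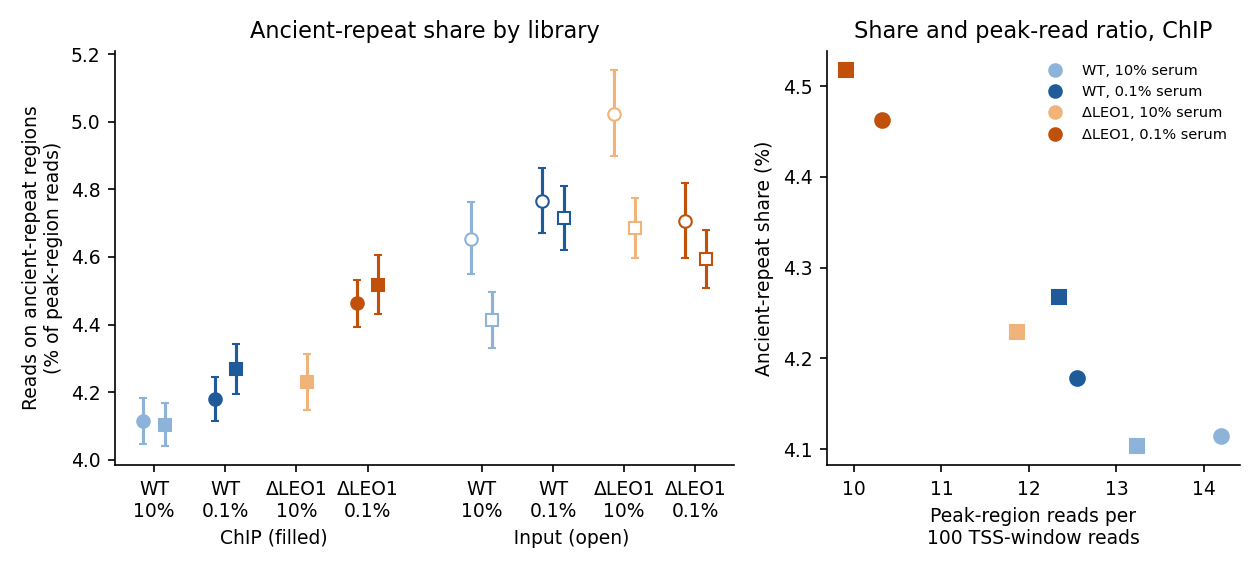
Left, percent of peak-region reads on ancient-repeat regions in each library (circles replicate A, squares replicate B; bars, 95% Wilson intervals; the axis does not start at 0), and right, the same share in ChIP against peak-region reads per 100 TSS-window reads. The ΔLEO1 ChIP libraries at 0.1% serum have the highest ChIP shares, 4.46% and 4.52%, and the lowest ratios, 10.3 and 9.91.

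At 0.1% serum, where the study asks what LEO1 does to H3K9me2 in quiescence, the ancient-repeat share was higher in both ΔLEO1 libraries than in both WT libraries. The difference was 0.267 percentage points, with an exact permutation p = 0.333, the smallest that 2 against 2 libraries allow. The inputs at 0.1% serum did not show this order, with 4.71% and 4.59% in ΔLEO1 and 4.77% and 4.71% in WT. Per family, ΔLEO1 and WT did not overlap for L2 (2.17% and 2.16% against 2.02% and 2.03%), DNA transposons (1.27% and 1.31% against 1.18% and 1.22%) and CR1 (0.159% and 0.173% against 0.153% and 0.153%). For MIR they overlapped, at 0.867% and 0.875% against 0.827% and 0.869%. The Alu share was also higher in ΔLEO1, at 6.64% and 6.89% against 6.14% and 6.27%, while those of L1, LTR and regions with no repeat were lower.

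The number of peak-region reads per 100 TSS-window reads moved with this share. It was 14.2 and 13.2 in WT at 10% serum, 11.9 in ΔLEO1 at 10%, 12.5 and 12.3 in WT at 0.1%, and 10.3 and 9.91 in ΔLEO1 at 0.1%. Over the 7 ChIP libraries the ancient-repeat share was higher where this ratio was lower (Pearson r = −0.958 and Spearman rho = −0.929, the only such relation computed). Without the 2 libraries farthest from the median ratio, both ΔLEO1 at 0.1% serum, r was −0.816 (n = 5), so the relation rests in part on those 2. Both quantities contain the same peak-read total, as denominator of the share and numerator of the ratio, so a negative relation is partly built in. Replicates of a condition are not independent points, and no p-value is given for this relation. The part of this ratio in the difference between genotypes was not tested. Per 100 TSS-window reads, ancient-repeat reads were lower in ΔLEO1 at 0.1% serum, with a difference of −0.0712 (0.461 and 0.448 against 0.524 and 0.527, exact p = 0.333). Which genotype is higher therefore depends on the denominator.

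Region by region, 0 of 752 ancient-repeat regions passed an adjusted p under 0.05 between ΔLEO1 and WT at 0.1% serum (edgeR quasi-likelihood test with Benjamini-Hochberg adjustment over 16092 regions, smallest adjusted p among them 0.130). In the background, 10 regions passed, or 0.0621%. An unadjusted p under 0.05 was met by 67 of 752 (8.91%), 47 higher and 20 lower in ΔLEO1, against 8.33% of all regions. The higher ones were 6.25% of ancient-repeat regions against 4.65% of all regions, and the lower ones 2.66% against 3.67%. Both ΔLEO1 libraries lay above both WT libraries in 154 regions (20.5%, background 18.1%) and below in 120 (16.0%, background 19.4%). DESeq2 also called 0, with 19 at an unadjusted p under 0.05 (2.53%, background 1.81%).

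The fold changes of ancient-repeat regions were shifted slightly upwards against other regions. Their median log2 fold change was 0.10, and that of all others 0.0028, with 432 positive and 320 negative (57.4% against 50.3% positive). By family the median was 0.14 for DNA transposons, 0.14 for CR1, 0.093 for L2 and 0.065 for MIR. It was 0.11 for Alu. The gap of 0.0996 between ancient-repeat and other regions was 0.042 without ΔLEO1 replicate B, 0.065 without ΔLEO1 replicate A, 0.058 without WT replicate A and 0.070 without WT replicate B. The median standard error of a single region's fold change was 0.39.

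**Figure D4:**
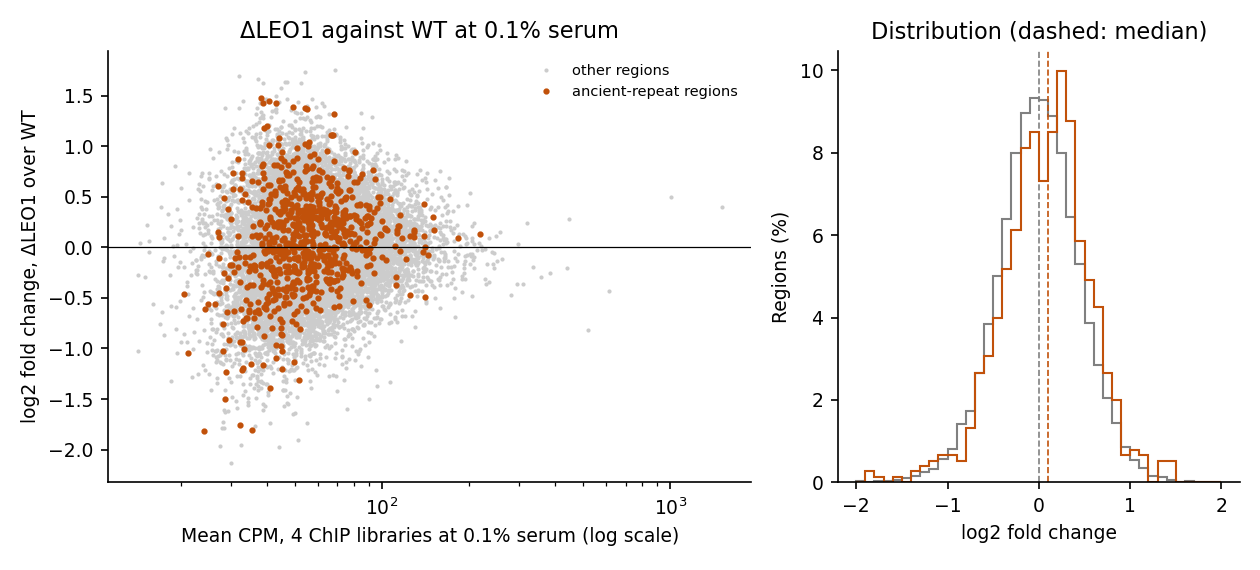
Left, log2 fold change of ΔLEO1 over WT at 0.1% serum against mean CPM (log scale) for each peak region, and right, the percent of regions by fold change, with the medians dashed. Ancient-repeat regions (orange, 752) overlap other regions (grey) almost wholly, with medians of 0.10 and 0.0028.

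The 3 regions in each direction with the smallest p were named, and none of them was called. The highest was a MER5B, a hAT-Charlie element, within KCNMA1, a calcium-activated potassium channel gene (chr10:77575274-77576221). It held 28 and 26 reads in ΔLEO1 and 16 and 8 in WT, or 82.8 and 121 against 42.9 and 27.2 CPM. Its log2 fold change was 1.32 ± 0.36 (SE, adjusted p = 0.130 by edgeR's test). In 10% serum, ΔLEO1 had 54.3 CPM and WT 33.0 and 49.3.

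A MIRb within LINC02691 (chr14:104231232-104231983) had 97.6 and 65.1 CPM in ΔLEO1 and 29.5 and 27.2 in WT, a log2 fold change of 1.37 ± 0.39. An L2 near CHODL-AS1 (chr21:17855736-17856365) had 85.8 and 74.3 against 21.5 and 34.0 CPM, also 1.37 ± 0.41. Both had adjusted p-values by edgeR's test above 0.05, at 0.172 and 0.220.

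In the other direction, a MER20, another hAT-Charlie element, lay at −144352 bp from the TSS of its nearest gene, MIR1302-7. It had 29.6 and 23.2 CPM in ΔLEO1 and 72.5 and 81.5 in WT (log2 fold change −1.31 ± 0.39). An L2b within GRID1, a glutamate receptor gene (chr10:85990925-85991622), had 17.7 and 4.6 against 64.4 and 54.3 CPM, from 6 and 1 against 24 and 16 reads (−1.81 ± 0.55). A Charlie3 near H3.Y, a gene for a histone H3 variant (chr5:17678730-17679498), had 20.7 and 18.6 against 67.1 and 57.7 CPM (−1.39 ± 0.44). The adjusted p was 0.233 for each by edgeR's test. The 4 libraries compared held 1 to 33 reads in each of these regions.

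**Figure D5:**
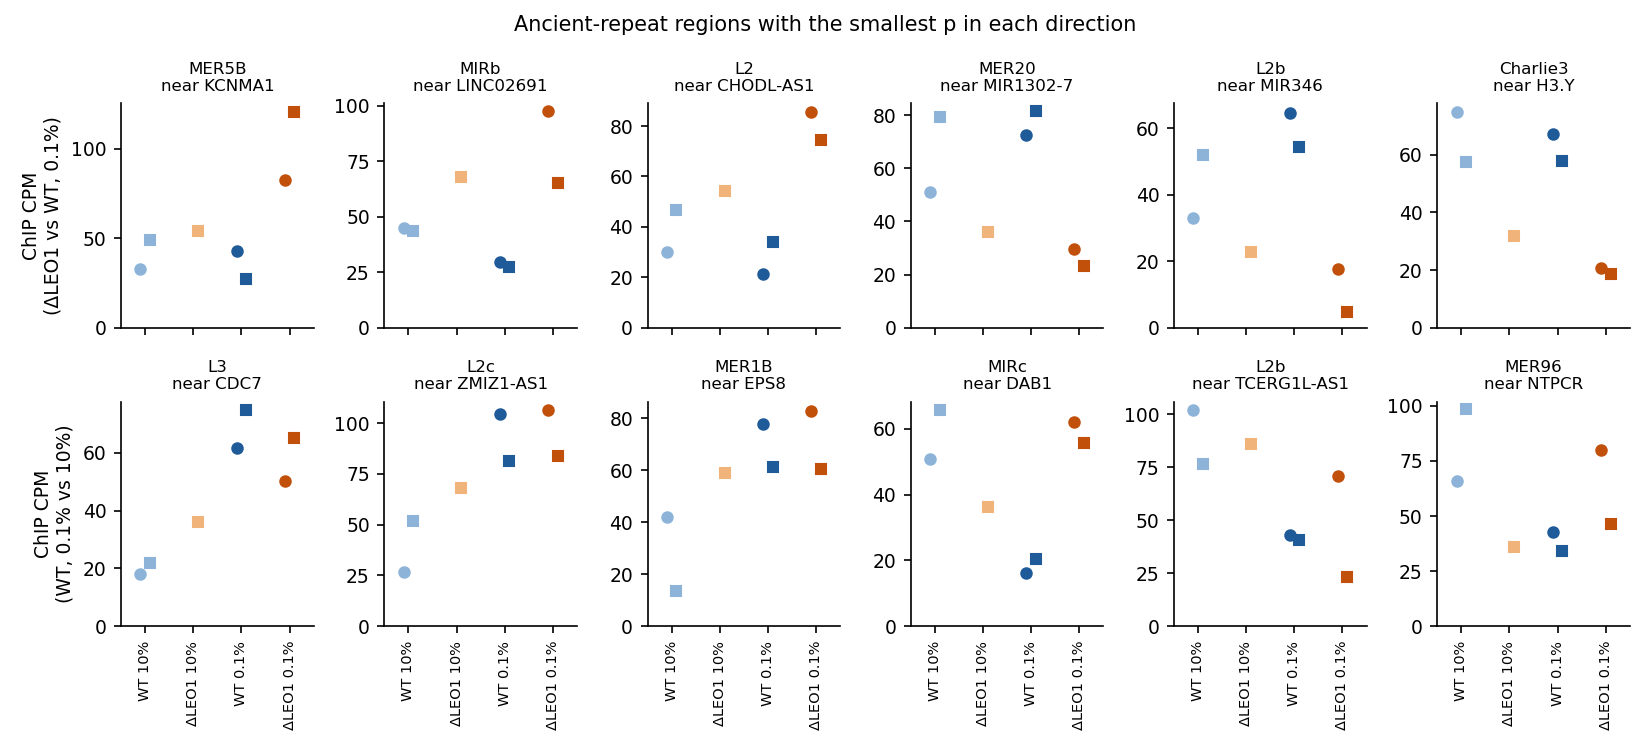
CPM in 7 ChIP libraries (circles replicate A, squares replicate B) for the ancient-repeat regions with the smallest p in each direction, between ΔLEO1 and WT at 0.1% serum (top) and between sera in WT (bottom). None was called, and in each panel the 2 groups compared do not overlap because that was required of a named region.

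Between sera in WT, 0 of 752 ancient-repeat regions were called by edgeR (smallest adjusted p among them 0.286), with a background of 0% of all regions. At an unadjusted p under 0.05 there were 51 (30 higher and 21 lower at 0.1% serum), or 6.78% against 7.27% of all regions. The higher ones were 3.99% against 3.34% of all regions, and the lower ones 2.79% against 3.93%. DESeq2 called 0, with 8 at an unadjusted p under 0.05 (1.06%, background 0.92%). The groups did not overlap in 134 regions higher at 0.1% (17.8%, background 17.7%) and 126 lower (16.8%, background 19.5%). The median log2 fold change was 0.013, against −0.011 for all others. The share of reads on ancient repeats was 0.115 points higher at 0.1% serum, with no overlap (4.18% and 4.27% against 4.11% and 4.10%, exact permutation p = 0.333, the smallest possible), and per 100 TSS-window reads the difference was −0.0380.

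The family with most regions at an unadjusted p under 0.05 for its size was CR1, with 6 of 26 (23.1%, 5 higher and 1 lower in 0.1% serum), a pattern picked after its values were seen. The one with the smallest p was an L3 near CDC7, a kinase gene of DNA replication, although its start is over 100 kb away (chr1:91622627-91623301). It held 23 and 22 reads at 0.1% serum and 6 and 8 at 10%, or 61.7 and 74.7 against 18.0 and 21.9 CPM (log2 fold change 1.49 ± 0.43, adjusted p = 0.286 by edgeR's test). In ΔLEO1 it had 50.3 and 65.1 CPM at 0.1% and 36.2 at 10%.

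The others named as higher were an L2c (chr10:78708053-78709298, 105 and 81.5 against 27.0 and 52.0 CPM) and a MER1B within EPS8, an actin regulator (chr12:15709602-15710205, 77.8 and 61.1 against 41.9 and 13.7 CPM). The L2c lay 358773 bp from the TSS of its nearest gene, ZMIZ1-AS1. Named as lower was a MIRc within DAB1, an adaptor in reelin signalling (chr1:58078834-58079451, 16.1 and 20.4 against 50.9 and 65.7 CPM). So were an L2b at −1404 bp from the TSS of TCERG1L-AS1 (chr10:131093347-131094282, 42.9 and 40.8 against 102 and 76.7 CPM) and a MER96 near NTPCR (chr1:232931072-232931955, 42.9 and 34.0 against 65.9 and 98.6 CPM). Their adjusted p-values by edgeR's test ran from 0.318 to 0.529.

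In 10% serum ΔLEO1 had 1 usable ChIP library, which the fit assumes to vary like the other groups. None of the 752 regions was called against WT (smallest adjusted p 0.397 by edgeR's test, background 0%). At an unadjusted p under 0.05 there were 58, 37 higher and 21 lower, or 7.71% against 7% of all regions, with 4.92% against 3.84% higher and 2.79% against 3.16% lower. DESeq2 had 10 (1.33%, background 1.08%). The median log2 fold change was 0.0037, against −0.021 for all others. The difference between the genotype effects in the 2 sera was called in 0 regions (background 0%), with 38 at an unadjusted p under 0.05, or 5.05% against 5.54% of all regions, and 6 by DESeq2 (0.798%, background 0.696%). The median of this difference was 0.096 for ancient repeats and 0.015 for others.

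The inputs served as the background. Of 674 ancient-repeat regions with enough input reads to be tested, 0 differed between the 4 ΔLEO1 and 4 WT inputs (smallest adjusted p 0.999 by edgeR's test, background 0%). At an unadjusted p under 0.05 there were 27, or 4.01% against 4.39% of all 14018 regions tested, and 8 by DESeq2 over all 752 (1.06%, background 0.696%). All 4 ΔLEO1 inputs lay above all 4 WT inputs in 12 regions (1.78%, background 1.5%) and below in 8 (1.19%, background 1.46%). The median log2 fold change was 0.041, against −0.0046 for all others. The 2 ΔLEO1 inputs in 10% serum agreed least of the input pairs, with a correlation of 0.339 across ancient-repeat regions. Without replicate B of that pair, which leaves only the input that stood apart in its group, these medians were 0.0096 and −0.033. The regions with the smallest p were a FordPrefect near LINC00210 and a MIR within TENM4 (log2 fold changes 0.81 ± 0.28 and 0.74 ± 0.27), and a MER115 near MIR7702 and an L2 near LINC02206 (−1.0 ± 0.34 and −0.82 ± 0.28). The MER115 region held 0, 7, 5 and 10 reads in the ΔLEO1 inputs and 11, 11, 16 and 15 in the WT inputs. In ChIP none of these 4 regions had an unadjusted p under 0.05 between genotypes in either serum.

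Replicates of a group agreed only moderately on single ancient-repeat regions. Across the 752 regions, which are not independent replicates, the correlation of A with B was 0.42 to 0.53 in ChIP and 0.34 to 0.49 in input. The difference between A and B in ChIP ran against the difference between A and B in the input of the same condition, with a correlation across ancient-repeat regions of −0.341 in WT at 10% serum, −0.288 in WT at 0.1% and −0.177 in ΔLEO1 at 0.1%. Over all peak regions it was −0.230, −0.205 and −0.122, and over 108916 TSS windows −0.0175, 0.00038 and −0.0159. The source of this relation was not tested.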

How the data were processed

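Both tables the authors deposited hold unscaled counts of reads for each library, one over merged peak regions and one over 2-kb TSS windows. The submitters' processing notes list hg38, dm6, bcl2fastq 2.20.0.422, STAR 2.7.10a and HOMER, and the methods name csaw and scaling to fly chromatin. The peak caller's settings and the libraries peaks were called on are not given in the sources used here. No fly region was in the tables (0), so no spike-in scaling was used, and a change common to all regions cannot be seen.

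Counts were tested with edgeR 4.0.16 in R 4.3.3 (filterByExpr, TMM, quasi-likelihood F-test, two-sided, prior count 2, all 16092 regions adjusted together), with 7 ChIP libraries in 1 fit and 8 inputs in another. DESeq2 1.42.0 was an alternative. CPM are scaled by TMM. TSS-window totals count each of 237274 distinct windows once. Shares were compared by exact permutation tests in scipy 1.17.1. The code was tested on simulated data. Gene spans and promoters came from RefSeq (GRCh38.p14).

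The members, lists and tests were chosen with earlier results of these data known. Named regions were the 3 of each family with most CPM per kb, and, with fewer than 3 called, the 3 in each direction with the smallest p (2 for inputs), non-overlapping and with at least 10 counts in each library of the higher group. The 2 promoters, and the motifs searched in them, were chosen after the data were seen.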

Additional observations from a re-analysis of the deposited data

How the results depend on the processing

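Shares of reads on ancient repeats reversed under 1 alternative. With TSS-window reads as the denominator, the difference was 0.364 reads per 100 window reads for ChIP against input (main −0.427 points of peak reads), −0.0712 for ΔLEO1 against WT at 0.1% serum (0.267) and −0.0380 for WT at 0.1% against 10% serum (0.115). The direction of the first was given in advance, because peak regions were picked for ChIP signal. All other alternatives kept the direction. These were reads per kb, MIR, L2 and CR1 alone, no chromosomes 3, 4 and 5, and, added after seeing the data, no regions with the most input reads (the top 1%). Leaving out 1 library gave −0.469 to −0.380, 0.223 to 0.312 and 0.0704 (without WT 0.1% serum replicate B) to 0.159. With the nearly empty library kept, ChIP against input was −0.960. Counts of called ancient-repeat regions stayed at 0 under every alternative but TSS-window totals as library sizes, which moved the median of other regions to −0.28 and of ancient-repeat regions to −0.18 and called 4 as lower in ΔLEO1 at 0.1% serum (94 of all regions, 93 lower). The gap between these medians was 0.042 without ΔLEO1 0.1% replicate B and 0.114 with the input difference taken off, against 0.0996. Between conditions, differences between A and B correlated by −0.0277 to 0.0278. This shows no link between the letters there, but with few reads per region it cannot exclude a shared culture or batch. Within a condition, ChIP and input differences correlated by −0.230 to −0.122 over peak regions. With a replicate block, 0 ancient-repeat regions were called in each comparison, 10 of all regions between genotypes at 0.1% serum and 5 between sera in WT, where there had been 0. ChIP against input paired by letter gave −0.380 points (exact permutation p = 0.0156), and with the letters crossed −0.428. Depth limits single regions, whose median standard error between genotypes at 0.1% serum was 0.39 on the log2 scale.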
